A study of Mus musculus with 16 samples.

Results

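The 10 genes described here belong to the bone morphogenetic protein (BMP) pathway, and were taken by gene symbol from the count and FPKM tables of mouse aorta, which list 54532 genes. They are the ligands Bmp2, Bmp4 and Bmp6, the type 2 receptor Bmpr2, the extracellular antagonists or modulators Bmper, Grem1 and Nog, and Id1, Id3 and Smad6, which BMP signalling induces. All 10 had enough counts to be tested in every comparison. Whole aortas of 16 male C57BL/6J mice were sequenced, 4 in each group and 1 library per mouse, and the mice were 12 weeks old at the first operation. Sham mice and 5/6 Nx-HPi-Lp mice received the same diet, with 2% phosphorus and 2.5% protein, and differed in surgery. In 5/6 nephrectomy (5/6 Nx) most kidney tissue is taken out of use, here by tying off the poles of the left kidney and later removing the right one, which gives a model of chronic kidney disease. The 5/6 Nx-HPi-Hp mice had the same surgery and a diet with 2% phosphorus and 18% protein, and the diet of 5/6 Nx-LPi-Lp mice held 0.3% phosphorus and 2.5% protein. The labels give 30 days on these diets, and the methods of the study give 4 weeks. No group combined sham surgery with another diet, so surgery was compared on 1 diet.

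BMPs are secreted ligands that bring type 1 and type 2 receptors together, and the receptors phosphorylate Smad1, Smad5 and Smad9, which enter the nucleus with Smad4 and switch on genes such as Id1 and Id3. Smad6 is induced by the same signal and inhibits it, and noggin (Nog), gremlin 1 (Grem1) and BMPER bind the ligands outside the cell. In arteries the pathway acts in endothelial and smooth muscle cells and is known for its part in vascular calcification, with BMP2 and BMP4 regarded as osteogenic ligands.

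Bmper, Bmp4 and Smad6 were the members called in at least 1 of the 3 comparisons of 5/6 Nx-HPi-Lp aortas, and the bases just before their starts are shown as the DNA from which these transcripts begin. The bases come from RefSeq windows on GRCm38.p6, which held 7 of the 10 members, and the starts of these 3 windows match the gene starts in the count table. Each run is the 250 bases before the start, and capitals mark GTCT or its reverse complement AGAC, the motif of Smad4. The Bmper run lies on the plus strand at chr9:23222826-23223075, the Bmp4 run on the minus strand at chr14:46390670-46390919, and the Smad6 run on the minus strand at chr9:64022060-64022309.
Bmper: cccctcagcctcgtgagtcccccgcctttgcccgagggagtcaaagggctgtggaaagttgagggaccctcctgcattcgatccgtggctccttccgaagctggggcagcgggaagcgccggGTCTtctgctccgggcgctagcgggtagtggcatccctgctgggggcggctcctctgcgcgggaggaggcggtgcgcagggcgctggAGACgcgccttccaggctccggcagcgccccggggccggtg
Bmp4: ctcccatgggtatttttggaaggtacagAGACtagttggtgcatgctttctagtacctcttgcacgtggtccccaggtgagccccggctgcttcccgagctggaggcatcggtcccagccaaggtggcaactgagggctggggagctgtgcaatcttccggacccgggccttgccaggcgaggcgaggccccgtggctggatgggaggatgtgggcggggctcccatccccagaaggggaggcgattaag
Smad6: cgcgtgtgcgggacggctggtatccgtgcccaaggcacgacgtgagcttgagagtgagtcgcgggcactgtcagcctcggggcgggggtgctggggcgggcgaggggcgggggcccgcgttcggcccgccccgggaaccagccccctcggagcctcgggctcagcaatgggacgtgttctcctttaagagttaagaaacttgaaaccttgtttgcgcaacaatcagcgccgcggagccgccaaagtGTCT
Bmper held 2 matches to GTCT on either strand, Bmp4 held 1 and Smad6 held 1. GTCT on either strand was present in 82.9% of all 32851 RefSeq windows of this length. The GC-rich motif GGCGCC, bound by Smad1 and Smad5 and identical on both strands, was in 9.6% of all windows and in none of these 3, and among the other members it stood in the windows of Bmpr2 and Grem1. The 2 motifs do not overlap each other. These matches describe letters only.

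The libraries held 13659525 to 57276915 counts. Depth was uneven in 5/6 Nx-HPi-Lp aortas, where replicates 2 and 3, with 57276915 and 46499243 counts, were far deeper than replicates 1 and 4, with 15665005 and 15013203. The 6 smooth muscle markers (Myh11, Acta2, Tagln and others) summed to 7876 to 9926 FPKM in Sham aortas and 847 to 1955 FPKM in 5/6 Nx-HPi-Lp aortas, against 2185 to 8730 and 2731 to 6554 FPKM in 5/6 Nx-HPi-Hp aortas and 5/6 Nx-LPi-Lp aortas. FPKM express a count per length of gene, here scaled between libraries by DESeq2 size factors. The 9 endothelial markers stayed within a narrower span, from 152 to 195 FPKM in Sham aortas and 198 to 251 FPKM in 5/6 Nx-HPi-Lp aortas, with 3 of the 9 called higher. The 5 adipocyte markers summed to 122 to 338 FPKM in Sham aortas and 939 to 1601 FPKM in 5/6 Nx-HPi-Lp aortas, with 4 called higher. They also reached 288 to 2018 FPKM in 5/6 Nx-HPi-Hp aortas and 698 to 2019 FPKM in 5/6 Nx-LPi-Lp aortas. All 5 were called higher than in Sham aortas in each of these groups. Set against either group, 5/6 Nx-HPi-Lp aortas had 0 adipocyte markers called. The 6 sympathetic neuron markers summed to 1.15 to 2.47 FPKM in Sham aortas and 11.8 to 761 FPKM in 5/6 Nx-HPi-Lp aortas, with 4 called higher of 4 tested. The share of counts from mitochondrial genes was 4.18% to 6.34% in Sham libraries and 9.50% to 29.0% in the other 12. The part of these measures in the members' levels was not tested. Kidney tubule markers summed to less than 1 FPKM in every library. In whole aorta, fewer cells of a type and less RNA per cell cannot be told apart. All 10 members were aortic transcripts of very different abundance, with means over the 16 libraries of 230 FPKM for Id3, 146 for Id1, 28.6 for Bmp4, 22.4 for Smad6, 13.1 for Bmp6, 4.03 for Bmpr2, 2.73 for Bmp2, 2.14 for Bmper, 0.623 for Nog and 0.248 for Grem1.

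**Figure D1:**
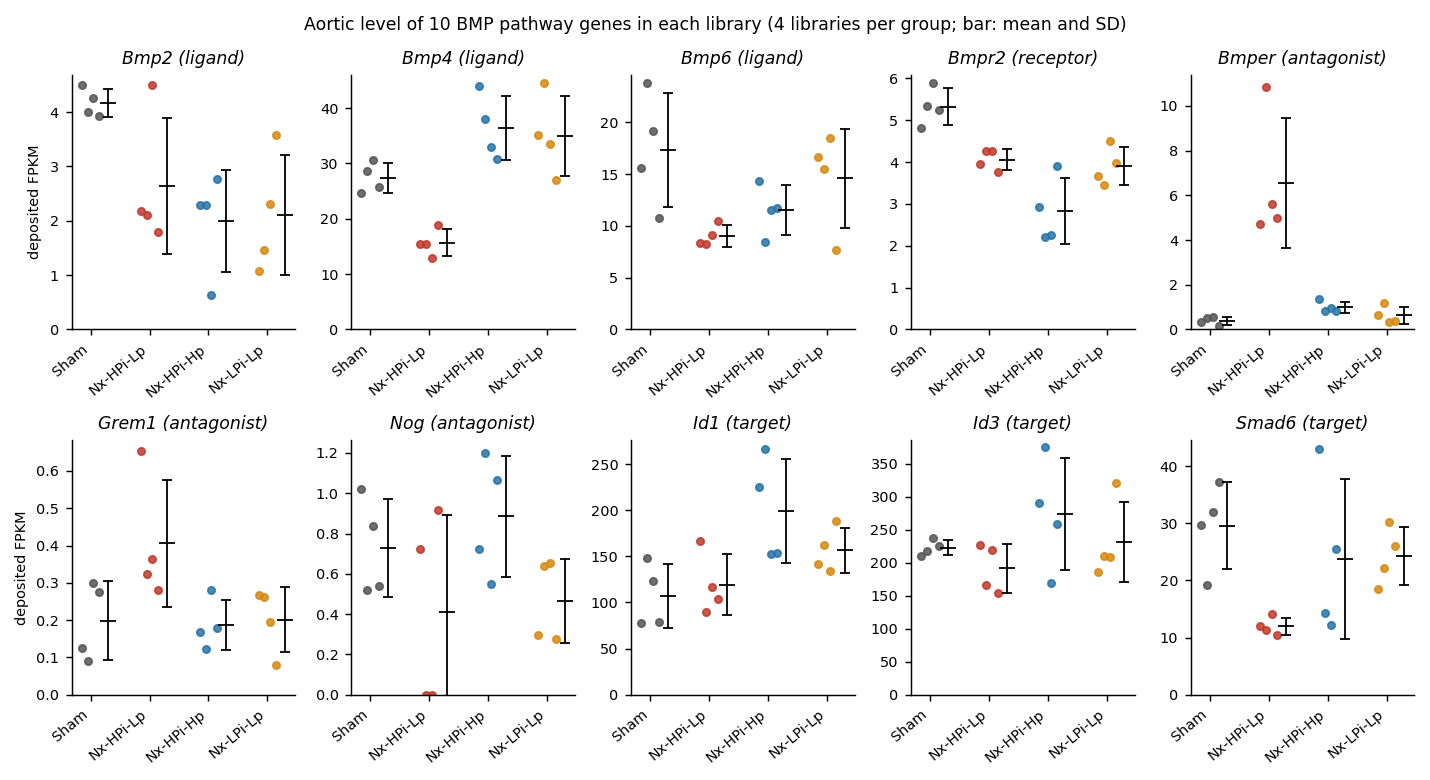
Deposited FPKM (y axis, from 0) of the 10 members in each library of the 4 groups (x axis), with the mean and SD over 4 libraries as a bar, cut at 0 where it would pass below. The 4 libraries of 5/6 Nx-HPi-Lp mice lie above all others for Bmper and below all others for Bmp4, and 2 of them are at 0 for Nog.

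The question of the first comparison, 5/6 Nx-HPi-Lp against Sham, is what the surgery changes on the same diet, and that of the other 2 is what protein and phosphorus change in nephrectomized mice. Calls were made where edgeR's quasi-likelihood p, adjusted by Benjamini-Hochberg over every gene tested, did not exceed 0.05 and the fold change reached 2. Against Sham aortas, 1 of the 10 members was higher (Bmper) and 1 lower (Smad6), beside 15% of all 16513 genes called higher and 7.18% called lower. Against 5/6 Nx-HPi-Hp aortas, 1 was higher (Bmper) and 1 lower (Bmp4), beside 5.01% and 3.11% of 16198 genes. Against 5/6 Nx-LPi-Lp aortas, 1 was higher (Bmper) and 2 were lower (Bmp4 and Smad6), beside 7.9% and 3.98% of 16253 genes. The members' counts are small numbers out of 10, and no test of the set was made. The median log2 fold change over the members was -0.55, -0.43 and -0.28 in these comparisons, and over all genes tested it was -0.00275, 0.00976 and -0.0158. The groups did not overlap in FPKM for 5, 2 and 4 of the 10 members, beside 41.8%, 20.6% and 24.6% of all genes tested.

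Bmper was the member with the largest change. BMPER, the homolog of crossveinless 2, binds BMPs outside the cell and can hold them back or promote their action. Its FPKM were 4.74, 10.9, 5.60 and 4.98 in 5/6 Nx-HPi-Lp aortas (replicates 1 to 4), and 0.350, 0.493, 0.570 and 0.143 in Sham aortas. They were 1.36, 0.843, 0.968 and 0.802 in 5/6 Nx-HPi-Hp aortas and 0.644, 1.16, 0.335 and 0.370 in 5/6 Nx-LPi-Lp aortas. All 4 libraries of 5/6 Nx-HPi-Lp aortas lay above the 12 others, and replicate 2 lay well above the other 3. The gene (ENSMUSG00000031963) spans chromosome 9 of mm10 from 23223076 to 23485200 on the plus strand. Bmper was 16.6-fold higher than in Sham aortas (log2 fold change 4.05, standard error 0.42, edgeR adjusted p = 9.37e-05). It was 6.57-fold higher than in 5/6 Nx-HPi-Hp aortas (2.71, standard error 0.31, edgeR adjusted p = 0.00258) and 10.5-fold higher than in 5/6 Nx-LPi-Lp aortas (3.39, standard error 0.45, edgeR adjusted p = 0.00222). It was the only one of the 10 members called in all 3 comparisons, where 3.96% of the 15676 genes tested in all of them were called higher each time. With replicates 2 and 3 left out together the call held in each comparison, and so it did with each library left out. The 6 macrophage markers were called higher in 5/6 Nx-HPi-Lp aortas in all 3 comparisons, with sums of 199 to 585 FPKM against 62.8 to 79.4 in Sham aortas, and the 6 fibroblast markers, called higher in 3, 5 and 5 of 6, summed to 595 to 2371 FPKM against 344 to 553. The part of these cell types in the Bmper level was not tested.

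The other antagonists, Grem1 and Nog, were scarce and were not called in any comparison. Gremlin 1 binds BMP2, BMP4 and BMP7. Grem1 ranged from 0.281 to 0.655 FPKM (18 to 75 counts) in 5/6 Nx-HPi-Lp aortas and from 0.0907 to 0.301 FPKM (9 to 30 counts) in Sham aortas, so that the groups overlapped. Its log2 fold change against Sham aortas was 0.995 with a 95% interval from -0.13 to 2.12. Against 5/6 Nx-HPi-Hp aortas Grem1 was 1.10 higher (-0.06 to 2.26) with overlapping groups. Against 5/6 Nx-LPi-Lp aortas it was 1.01 higher (-0.13 to 2.15), and these groups did not overlap. Noggin is a secreted protein that blocks BMP2 and BMP4. Nog held 19, 0, 0 and 24 counts in 5/6 Nx-HPi-Lp replicates 1 to 4, and 47, 21, 33 and 24 counts in Sham aortas. It held 23, 24, 12 and 34 counts in 5/6 Nx-HPi-Hp aortas and 9, 17, 15 and 10 in 5/6 Nx-LPi-Lp aortas. The 2 libraries with 0 counts were the 2 deepest of the 16, where a count of 0 allows up to 0.0317 and 0.0391 FPKM (3 counts, counting error only), and the other 14 libraries held 9 to 47 counts. The intervals of Nog were wide, from -3.80 to 1.83 on the log2 scale against Sham aortas, where the fold change was -0.98. Without 5/6 Nx-HPi-Lp replicates 2 and 3 this value was 0.14, and since these are the libraries at 0 it is given with no test.

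Among the ligands, Bmp4 fell and Bmp2 was not called. Bmp4 is made by endothelial cells of the aorta among others. Its FPKM were 15.5, 15.3, 12.9 and 18.9 in 5/6 Nx-HPi-Lp aortas and 24.7, 28.7, 30.6 and 25.7 in Sham aortas. They were 43.9, 37.9, 33.0 and 30.8 in 5/6 Nx-HPi-Hp aortas and 35.1, 44.5, 33.5 and 27.0 in 5/6 Nx-LPi-Lp aortas. The 5/6 Nx-HPi-Lp libraries lay below all 12 others. Bmp4 was lower by 2.33-fold than in 5/6 Nx-HPi-Hp aortas (log2 fold change -1.22, standard error 0.17, edgeR adjusted p = 0.00469) and by 2.24-fold than in 5/6 Nx-LPi-Lp aortas (-1.16, standard error 0.17, edgeR adjusted p = 0.00337). Against Sham aortas it was 1.79-fold lower (-0.84, standard error 0.13, edgeR adjusted p = 0.000808), short of the 2-fold threshold. Bmp6 and Bmpr2 also passed the adjusted p there, as did 42.9% of all genes tested. Of the 9 endothelial markers 0 were called lower in any of these 3 comparisons, and of the 6 smooth muscle markers 6, 5 and 6 were. The part of either cell type in the Bmp4 level was not tested. Bmp4 (ENSMUSG00000021835, chromosome 14 of mm10, 46383520 to 46390669) overlaps the antisense gene Gm15222, listed with 61 to 198 counts per library, and the end of Gm15217, and the strand setting of the counting is not given in the sources used here. Reads from Bmp4 and these genes may therefore not be fully separated.

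Bmp6, a ligand known for iron regulation that is also found in bone and vessels, ranged from 8.22 to 10.5 FPKM in 5/6 Nx-HPi-Lp aortas and from 10.8 to 23.8 FPKM in Sham aortas. It was 1.96-fold lower than in Sham aortas, with a log2 fold change of -0.97 (standard error 0.22, edgeR adjusted p = 0.00551), which is close to the 2-fold threshold. The call against Sham aortas was made without Sham replicate 1 (-1.03), without Sham replicate 4 (-1.16) and without 5/6 Nx-HPi-Lp replicate 4 (-1.03). Bmp6 overlaps the 3' end of Txndc5, which is listed with up to 14735 counts per library, and 4930579J19Rik, with at most 3. Bmp2 was 4.50, 4.01, 4.26 and 3.93 FPKM in Sham aortas and 2.18, 2.11, 4.50 and 1.79 FPKM in 5/6 Nx-HPi-Lp aortas. Replicate 3 of the latter stood at the Sham level and the other 3 below it. Its log2 fold change against Sham aortas was -0.68 (95% interval -1.29 to -0.06, edgeR adjusted p = 0.0712), and -1.06 with an adjusted p of 0.000938 without replicate 3, where it was called lower. Against 5/6 Nx-HPi-Hp aortas and 5/6 Nx-LPi-Lp aortas the values were 0.40 (-0.61 to 1.41) and 0.33 (-0.63 to 1.28), with intervals that span 0. Bmp2 was not called higher in 5/6 Nx-HPi-Lp aortas in any of the 3 tests.

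Bmpr2, the type 2 receptor, ranged from 3.76 to 4.27 FPKM in 5/6 Nx-HPi-Lp aortas and from 4.81 to 5.90 in Sham aortas. It was lower by 0.42 on the log2 scale, or 1.34-fold (standard error 0.09, edgeR adjusted p = 0.00546). In 5/6 Nx-HPi-Hp aortas Bmpr2 ranged from 2.21 to 3.90 FPKM, the lowest mean of the groups. Bmpr2 was 0.52 higher on the log2 scale in 5/6 Nx-HPi-Lp aortas than there (95% interval 0.07 to 0.96), which missed the threshold (edgeR adjusted p = 0.112). Its difference between 5/6 Nx-HPi-Lp aortas and 5/6 Nx-LPi-Lp aortas was 0.06 (95% interval -0.22 to 0.33).

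**Figure D2:**
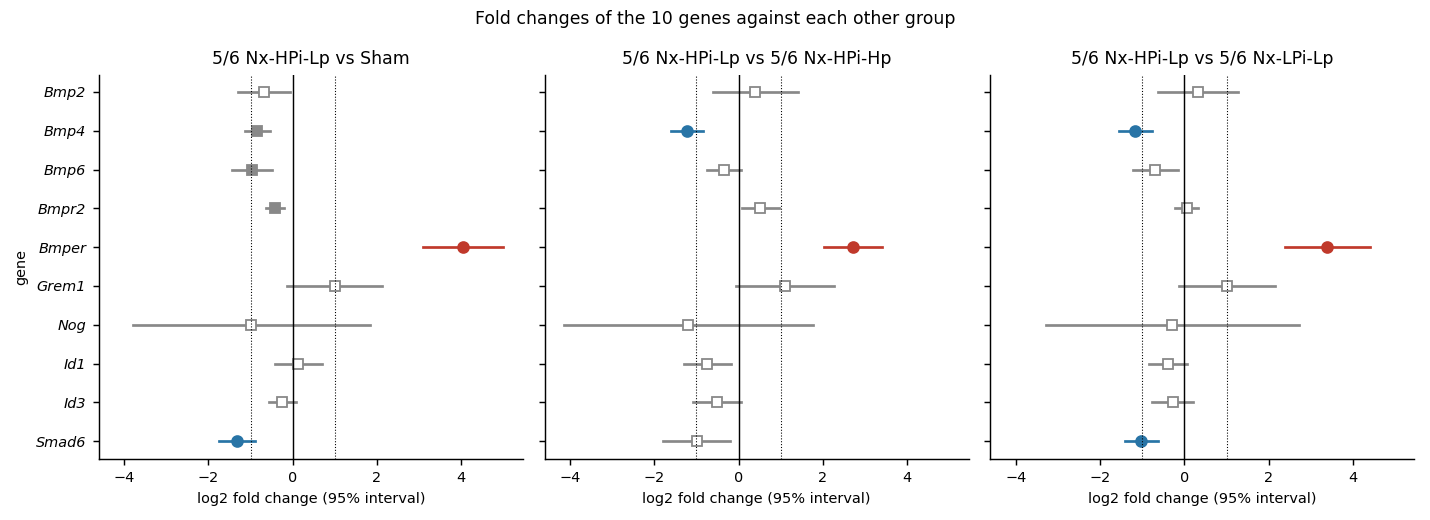
Log2 fold change (x axis) of each member (y axis) in 5/6 Nx-HPi-Lp aortas against each other group, with its 95% interval, where circles are called genes, filled squares passed the adjusted p alone, open squares did not pass, and dotted lines mark 2-fold. Bmper stands furthest to the right in each panel, at 4.05, 2.71 and 3.39.

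Id1 and Id3, transcription regulators that are the classic readouts of BMP signalling, were not called in any comparison of 5/6 Nx-HPi-Lp aortas, while Smad6 was. Id1 was 166, 89.9, 117 and 104 FPKM in 5/6 Nx-HPi-Lp aortas and 77.3, 148, 124 and 78.5 FPKM in Sham aortas, and the groups overlapped. Its log2 fold change was 0.13 against Sham aortas (95% interval -0.43 to 0.70), -0.74 against 5/6 Nx-HPi-Hp aortas (edgeR adjusted p = 0.0811) and -0.40 against 5/6 Nx-LPi-Lp aortas (-0.85 to 0.05). Id3 was 227, 166, 220 and 154 FPKM in 5/6 Nx-HPi-Lp aortas and 211, 218, 238 and 226 FPKM in Sham aortas, with a log2 fold change of -0.25 (-0.57 to 0.07). It was -0.52 (-1.09 to 0.06) against 5/6 Nx-HPi-Hp aortas, which ranged from 169 to 376 FPKM, and -0.27 (-0.76 to 0.21) against 5/6 Nx-LPi-Lp aortas, which ranged from 185 to 321 FPKM.

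Smad6, the inhibitory Smad, was 12.03, 11.4, 14.1 and 10.4 FPKM in 5/6 Nx-HPi-Lp aortas and 29.8, 19.2, 32.1 and 37.3 FPKM in Sham aortas. It was 43.0, 14.2, 12.3 and 25.6 FPKM in 5/6 Nx-HPi-Hp aortas and 18.5, 22.2, 30.3 and 26.0 FPKM in 5/6 Nx-LPi-Lp aortas. The 5/6 Nx-HPi-Lp libraries did not overlap with those of the Sham or 5/6 Nx-LPi-Lp mice, and overlapped with the low libraries of 5/6 Nx-HPi-Hp aortas. Smad6 fell 2.52-fold against Sham aortas (log2 fold change -1.33, standard error 0.19, edgeR adjusted p = 0.000496) and 2.03-fold against 5/6 Nx-LPi-Lp aortas (-1.02, standard error 0.17, edgeR adjusted p = 0.00551). The last value sat at the 2-fold threshold. It was under it without 5/6 Nx-HPi-Lp replicate 4 (-0.94), 5/6 Nx-LPi-Lp replicate 3 (-0.89) or 5/6 Nx-LPi-Lp replicate 4 (-0.96), while its adjusted p stayed at most 0.0407 under every alternative tried. Against 5/6 Nx-HPi-Hp aortas its value was -0.995 (edgeR adjusted p = 0.0931), and it was called lower there by DESeq2 (adjusted p = 0.0324) and with no count filter (edgeR adjusted p = 0.0492). Smad6 (ENSMUSG00000036867) lies on chromosome 9 of mm10 from 63953076 to 64022059.

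The order of the 4 groups differed among members. Bmper was highest in 5/6 Nx-HPi-Lp aortas (6.55 ± 2.90 FPKM, SD, n = 4), then 5/6 Nx-HPi-Hp aortas (0.993 ± 0.254), 5/6 Nx-LPi-Lp aortas (0.628 ± 0.381) and Sham aortas (0.389 ± 0.188), and in this order only the first pair of neighbours passed the adjusted p. Bmp4 was highest in 5/6 Nx-HPi-Hp aortas (36.4 ± 5.84) and 5/6 Nx-LPi-Lp aortas (35.0 ± 7.24), which did not differ beyond their spread (log2 difference 0.05, 95% interval -0.36 to 0.45), then Sham aortas (27.4 ± 2.72) and 5/6 Nx-HPi-Lp aortas (15.6 ± 2.47). The step from 5/6 Nx-LPi-Lp aortas to Sham aortas missed the threshold (edgeR adjusted p = 0.0872). Bmp2, Bmp6, Bmpr2 and Smad6 had their highest mean in Sham aortas, Nog, Id1 and Id3 in 5/6 Nx-HPi-Hp aortas and Grem1 in 5/6 Nx-HPi-Lp aortas. Of these 8 members, Bmpr2 was the only one with neighbours in the order that passed the adjusted p, Sham aortas and 5/6 Nx-HPi-Lp aortas. Of the 3 remaining pairs of groups, which differ in 2 variables or in surgery and diet together, 5/6 Nx-HPi-Hp against Sham had Bmper called higher (1.36, edgeR adjusted p = 0.0303) and Bmp2 lower (-1.06, edgeR adjusted p = 0.0402), beside 9.41% of genes higher and 2.75% lower. Bmpr2 (-0.92) and Id1 (0.89) passed the adjusted p alone, beside 31.4% of genes that passed it with or without the fold. Both calls sat near the thresholds. The Bmp2 call was lost with 7 of the 8 libraries left out in turn (all but 5/6 Nx-HPi-Hp replicate 4, edgeR adjusted p up to 0.0859), with limma on log2(FPKM + 1) and with all 16 libraries in one fit. The Bmper call was lost without Sham replicate 1 or 2 or 5/6 Nx-HPi-Hp replicate 1 or 3 (edgeR adjusted p up to 0.0804), with total counts and with limma on log2(FPKM + 1). In 5/6 Nx-LPi-Lp against Sham 0 members were called by edgeR, where 10.9% of genes were, and Bmp2 (-0.96) and Bmpr2 (-0.44) passed the adjusted p alone, beside 31.8% of genes. In 5/6 Nx-HPi-Hp against 5/6 Nx-LPi-Lp edgeR called 0 of 15850 genes (0%), with 1420 at an unadjusted p under 0.05, 1 member among them (Bmpr2), and DESeq2 called 78 genes and 0 members. These comparisons share libraries with the others.

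Set side by side per length, the sum of Bmper, Grem1 and Nog relative to that of the 3 ligands was higher in 5/6 Nx-HPi-Lp aortas than in any other group, and this holds for these members and not for BMP antagonists at large. Some antagonists or modulators outside the members were far more abundant. Sost (46.4 against 599 FPKM on average) and Twsg1 (18.6 against 71.2 FPKM) were lower in 5/6 Nx-HPi-Lp aortas than in Sham aortas. Nbl1 (94.3 against 74.2 FPKM), Fstl1 (198 against 179 FPKM) and Mgp (2411 against 2602 FPKM) were not called there. Against 5/6 Nx-LPi-Lp aortas Fstl1 was called higher (2.12-fold, edgeR adjusted p = 0.0438), with overlapping groups. Nbl1 was 1.88-fold higher in that comparison and passed the adjusted p alone (edgeR adjusted p = 0.0139), and Mgp was not called. None of Nbl1, Fstl1 and Mgp was called against 5/6 Nx-HPi-Hp aortas. Twsg1 was also called lower than in Sham aortas in 5/6 Nx-HPi-Hp aortas (log2 fold change -1.42). It was not called between 5/6 Nx-HPi-Lp aortas and 5/6 Nx-HPi-Hp or 5/6 Nx-LPi-Lp aortas. Summed FPKM of Bmp2, Bmp4 and Bmp6 were 25.7 to 31.2 in 5/6 Nx-HPi-Lp aortas and 40.4 to 56.5 in Sham aortas. Summed FPKM of Bmper, Grem1 and Nog were 5.96 to 11.2 in 5/6 Nx-HPi-Lp aortas and 0.961 to 1.71 in Sham aortas. These 3 antagonists or modulators amounted to 27.4 ± 10.9 FPKM per 100 FPKM of ligand (SD, n = 4) in 5/6 Nx-HPi-Lp aortas, 2.71 ± 0.653 in Sham aortas, 4.17 ± 0.383 in 5/6 Nx-HPi-Hp aortas and 2.43 ± 0.638 in 5/6 Nx-LPi-Lp aortas. Replicates 1 to 4 of 5/6 Nx-HPi-Lp aortas stood at 23.5, 43.6, 22.5 and 19.8. Bmper, whose protein can also promote BMP action, made up 77.4% to 97.1% of the summed FPKM of these 3 in 5/6 Nx-HPi-Lp aortas. In Sham aortas it made up 14.8% to 44.8%. Bmp4 made up 57.1% of the ligand FPKM on average in 5/6 Nx-HPi-Lp aortas and 56.5% in Sham aortas, against 72.9% and 67.7% in 5/6 Nx-HPi-Hp aortas and 5/6 Nx-LPi-Lp aortas. The sums were formed after the members' values were known and are given with no test.

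**Figure D3:**
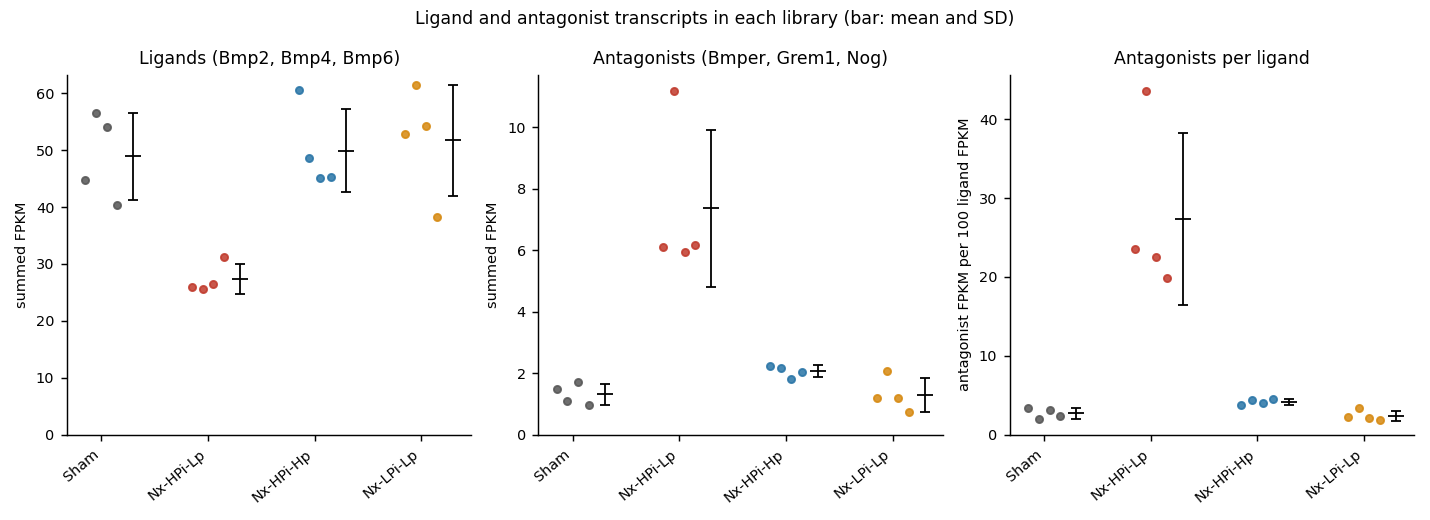
Summed FPKM of the 3 ligands (left) and the 3 antagonists or modulators among the members (middle), and antagonist FPKM per 100 ligand FPKM (right), in each library (points) with mean and SD (bars), by group on the x axis. The 5/6 Nx-HPi-Lp libraries are the 4 lowest for the sum of Bmp2, Bmp4 and Bmp6 and the 4 highest for the sum of Bmper, Grem1 and Nog, which leaves out more abundant antagonists such as Sost.

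A further 56 genes of the pathway were read from the same fits. Of the 49 tested against Sham aortas, 7 were called higher and 14 lower, beside the 15% and 7.18% of all genes. Against 5/6 Nx-HPi-Hp aortas 3 were higher and 1 lower of 48, beside 5.01% and 3.11%, and against 5/6 Nx-LPi-Lp aortas 5 were higher and 4 lower of 49, beside 7.9% and 3.98%. The genes called in the same direction in all 3 comparisons were Fst, Runx2 and Tmem100, which were higher, and Atoh8, which was lower, where 3.96% and 1.57% of all genes tested were called higher or lower each time. Follistatin (Fst), which binds activins and some BMPs, ranged from 3.88 to 6.26 FPKM in 5/6 Nx-HPi-Lp aortas and from 1.11 to 1.77 in Sham aortas, and was 3.38-fold higher (log2 fold change 1.76, edgeR adjusted p = 0.000122). It was 2.59-fold higher than in 5/6 Nx-HPi-Hp aortas and 2.42-fold higher than in 5/6 Nx-LPi-Lp aortas.

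The receptors and extracellular modulators that were lower against Sham aortas included abundant aortic transcripts. The type 1 receptor gene Bmpr1a was 9.12 to 11.6 FPKM in 5/6 Nx-HPi-Lp aortas and 29.7 to 34.9 in Sham aortas (3.13-fold lower, edgeR adjusted p = 1.5e-05), and Bmpr1b was 5.49-fold lower. Bmpr1b was also called lower than in Sham aortas in 5/6 Nx-HPi-Hp aortas (2.69-fold, edgeR adjusted p = 0.03). Bmpr1a was also called lower than in Sham aortas in 5/6 Nx-HPi-Hp aortas (log2 fold change -1.47) and 5/6 Nx-LPi-Lp aortas (-1.22), and was not called between 5/6 Nx-HPi-Lp aortas and either of them (-0.15, 95% interval -0.83 to 0.52, and -0.38, -0.91 to 0.14). Against Sham aortas, edgeR called 0 of the 10 further receptors and co-receptors higher and 2 lower, beside 15% and 7.18% of all genes. Against 5/6 Nx-HPi-Hp aortas 0 were called in either direction, beside 5.01% and 3.11%. Against 5/6 Nx-LPi-Lp aortas 0 were higher and 1 lower (Bmpr1b, 2.62-fold, edgeR adjusted p = 0.0165), beside 7.9% and 3.98%. Sclerostin (Sost), known chiefly as a Wnt inhibitor and a member of the same protein family as gremlin 1, was 21.7 to 70.9 FPKM in 5/6 Nx-HPi-Lp aortas and 441 to 683 in Sham aortas (13.2-fold lower). It was 5.26-fold lower than in 5/6 Nx-LPi-Lp aortas. Against 5/6 Nx-HPi-Hp aortas, which ranged from 41.1 to 566 FPKM, Sost was 5.35-fold lower but not called (edgeR adjusted p = 0.0544), and the groups overlapped. Bmp3, a ligand regarded as an antagonist of osteogenic BMPs, was 4.06-fold lower than in Sham aortas and 2.29-fold lower than in 5/6 Nx-LPi-Lp aortas. Sham aortas spread from 2.55 to 11.6 FPKM. Against 5/6 Nx-HPi-Hp aortas Bmp3 was not called (1.30-fold lower, edgeR adjusted p = 0.390), and these aortas were themselves called 3.07-fold lower than Sham aortas. Sostdc1, a sclerostin relative that binds BMPs, was 17.4-fold higher than in Sham aortas (log2 fold change 4.12, standard error 0.85). It spread from 0.382 to 10.1 FPKM in 5/6 Nx-HPi-Lp aortas. Sostdc1 was also called higher than in Sham aortas in 5/6 Nx-HPi-Hp aortas (3.76-fold). It was 4.68-fold higher than in 5/6 Nx-HPi-Hp aortas and 4.45-fold higher than in 5/6 Nx-LPi-Lp aortas. Neither was called (edgeR adjusted p = 0.102 and 0.0787), and the groups overlapped. Tolloid-like 1 (Tll1), a protease that cleaves the antagonist chordin, was 8.46-fold higher than in Sham aortas and 5.49-fold higher than in 5/6 Nx-LPi-Lp aortas. It was scarce, at 0.521 FPKM on average in 5/6 Nx-HPi-Lp aortas and 0.0605 FPKM in Sham aortas. Against 5/6 Nx-HPi-Hp aortas Tll1 was 4.15-fold higher but not called (edgeR adjusted p = 0.115).

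Among the further Smads and targets the directions were mixed. Smad7, the other inhibitory Smad, was 6.89 ± 0.478 FPKM (SD, n = 4) in 5/6 Nx-HPi-Lp aortas and 15.6 ± 0.565 in Sham aortas (2.31-fold lower, edgeR adjusted p = 2.35e-05), and Smad9 was 2.57-fold lower. Id2, a relative of Id1 and Id3, was 2.48-fold lower than in Sham aortas. None of Smad7, Smad9 and Id2 was called by edgeR against 5/6 Nx-HPi-Hp or 5/6 Nx-LPi-Lp aortas. Smad7 passed the adjusted p alone against 5/6 Nx-LPi-Lp aortas (log2 fold change -0.76, edgeR adjusted p = 0.0422). Smad5 was higher in all 3 comparisons and passed the adjusted p alone (1.34-fold, 1.88-fold and 1.60-fold, edgeR adjusted p = 0.00502, 0.00569 and 0.00496). Smad1 passed it alone against 5/6 Nx-LPi-Lp aortas (1.64-fold higher, edgeR adjusted p = 0.0112). Smad4 passed it alone against 5/6 Nx-HPi-Hp aortas (1.64-fold higher, edgeR adjusted p = 0.0353). The regulator Smurf2 passed it alone against Sham aortas (1.63-fold lower, edgeR adjusted p = 0.000437). Atoh8, a transcription factor gene induced by BMP signalling in endothelial cells, was 2.16-fold, 2.15-fold and 2.15-fold lower in the 3 comparisons. Tmem100, an endothelial target of BMP9 and BMP10 signalling through the receptor Acvrl1, was 3.79-fold higher than in Sham aortas, 2.90-fold than in 5/6 Nx-HPi-Hp aortas and 3.85-fold than in 5/6 Nx-LPi-Lp aortas. Runx2, the master regulator of osteoblasts, was 3.12-fold higher than in Sham aortas but stayed between 0.438 and 0.930 FPKM. The 6 smooth muscle markers were all called lower against Sham aortas, with a median log2 fold change of -2.82. The part of smooth muscle in the levels of these Smads and targets was not tested.

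**Figure D4:**
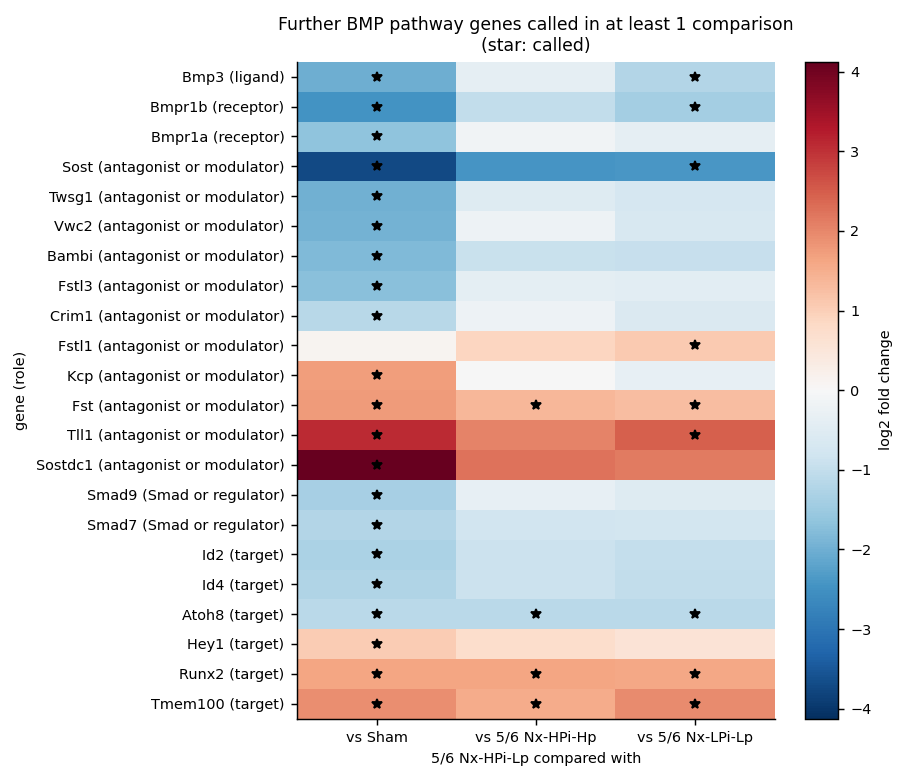
Log2 fold change (colour) of the 22 further pathway genes (y axis, with role) called in at least 1 of the 3 comparisons (x axis), with a star where called. Fst, Runx2 and Tmem100 carry a star in all 3 columns as higher and Atoh8 as lower.

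Over the 16 libraries, the genes whose log2(FPKM + 1) followed each member most closely differed by member. For Bmper they were Lbp (Pearson's r = 0.983), Gda (0.981) and Inpp5d (0.978), and for Smad6 they were Atoh8 (0.915), Ihh (0.899) and Smad7 (0.893). For Bmp4 they were Bmx (0.936), Retnla and Pfdn5, and for Bmp2 they were Fgf2 (0.938), Cyld and Igfbp7. For Bmpr2 they were Rab1a (0.964), Vapa and Ap3m1, and for Bmp6 Amotl2 (0.844), Mtus1 and Enpp6. The highest r was 0.849 for Grem1, 0.810 for Nog, 0.833 for Id1 and 0.831 for Id3. These r are descriptions over libraries that fall into 4 groups and share their scaling, and carry no test.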

How the data were processed

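Total RNA of the aortas of 16 mice was sequenced as poly(A) libraries, 1 per mouse. The authors used HISAT2 for alignment (mm10) and featureCounts 1.5.0-p3 for counting, and the deposited counts are whole numbers without normalization for 54532 genes. The authors also deposited FPKM, already scaled between libraries by DESeq2 size factors (ratio 1 in a check against the counts). The strand setting and the treatment of reads that match several genes are not given in the sources used here. Groups came from the labels.

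In R 4.3.3, edgeR 4.0.16 (quasi-likelihood test, filterByExpr, TMM, 8 libraries per fit) tested all genes with Benjamini-Hochberg adjustment, with calls made at 2-fold or more where the adjusted p did not exceed 0.05. Alternatives were DESeq2 1.42.0, limma 3.58.1 on log2(FPKM + 1) and log2(FPKM + 0.1) for a mean FPKM above 0.5, RLE and total-count scaling, no count filter, mitochondrial genes left out, all 16 libraries in one fit, the adjusted p alone, a replicate block and each library left out. Leaving out 5/6 Nx-HPi-Lp replicates 2 and 3, or 1 and 4, together was added after the data were seen. The scripts were tested on simulated data. No pair of replicates was a copy (lowest chi-square per gene 20.0). The members and lists were chosen with earlier results of these data known. All 10 members were named, with, from the 56 further pathway genes, those called in all 3 comparisons and, per role and comparison, up to 3 called genes of largest change. Likeness used genes with a mean FPKM of at least 1. Library totals ranged from 13659525 to 57276915 counts, and counting error limits Nog and Grem1. Python 3.11.15 and matplotlib 3.10.9 were also used. Mice were not paired by replicate number. Of the pathway list as first drawn up, 1 gene is not reported here.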

Additional observations from a re-analysis of the deposited data

Results flagged for a closer look

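Chance flags about 1 in 20 groups, and 40 groups of 4 libraries (10 members in 4 groups) were checked for a single library far from the others by Dixon's test. There were 2 such libraries. Bmp2 in 5/6 Nx-HPi-Lp replicate 3 was 4.50 FPKM, far from the other 3 libraries of that group at 1.79 to 2.18. Bmper in 5/6 Nx-HPi-Lp replicate 2 was 10.9 FPKM, far from the other 3 at 4.74 to 5.60. These are the 2 deepest libraries, and the part of depth was not tested.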

How the results depend on the processing

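Bmper was called higher in all 3 5/6 Nx-HPi-Lp comparisons under every alternative tried, and Bmp4 kept its direction in each. Bmp4 also kept its side of the threshold, except that the adjusted p alone called it lower against Sham aortas. Of 1066 values of single members under the alternatives other than the adjusted p alone, 984 kept direction and side of the threshold, 23 lost a call, 21 gained one and 38 changed sign, all 38 for members not called. The members called lower against Sham aortas numbered 1 as reported, 4 by the adjusted p alone, 2 with total counts, 2 with no count filter, 2 without 5/6 Nx-HPi-Lp replicates 2 and 3, 3 without replicates 1 and 4 (Bmp6 and Nog added), and 1 to 2 with each library left out. Those lower against 5/6 Nx-HPi-Hp aortas numbered 1 as reported and 2 with DESeq2, with no count filter or without replicates 1 and 4 (Nog added). Leaving out replicates 1 and 4 keeps the libraries at 0 Nog counts, so its Nog calls are no evidence. Those lower against 5/6 Nx-LPi-Lp aortas numbered 2 as reported, 1 with total counts, with limma at either pseudocount or with mitochondrial genes left out, and 1 to 2 with each library left out. The further pathway genes against 5/6 Nx-HPi-Hp aortas numbered 3 higher and 1 lower as reported, and 5 and 3 with DESeq2. For 5/6 Nx-HPi-Hp against Sham, 1 member was higher and 1 lower as reported. The adjusted p alone gave 2 and 2, total counts 0 and 2, limma on log2(FPKM + 1) 0 and 0, all 16 libraries in one fit 0 lower, and leaving out each library 0 to 1 higher and 0 to 2 lower. For 5/6 Nx-LPi-Lp against Sham, 0 were lower as reported, 2 by the adjusted p alone, 1 with total counts, no count filter or limma on log2(FPKM + 0.1), and 0 to 1 with each library left out.

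The log2 fold change of Id1 against Sham aortas was -0.0095 with total counts, -0.061 without 5/6 Nx-HPi-Lp replicates 1 and 4, and -0.053 to 0.31 with each library left out. Without 5/6 Nx-HPi-Lp replicates 2 and 3, Nog was 0.14 against Sham aortas and 0.80 against 5/6 Nx-LPi-Lp aortas, Bmp2 was -0.034 against 5/6 Nx-HPi-Hp aortas and -0.12 against 5/6 Nx-LPi-Lp aortas, and Bmpr2 was -0.045 against the latter. With each library left out, Bmp2 ran from -0.0058 to 0.61 against 5/6 Nx-HPi-Hp aortas and from -0.069 to 0.74 against 5/6 Nx-LPi-Lp aortas, Nog from -1.10 to 0.17 and Bmpr2 from -0.0195 to 0.14 against the latter. For 5/6 Nx-LPi-Lp against Sham, total counts gave -0.23 for Grem1 and -0.17 for Id3, no count filter gave -0.032 for Grem1, and leaving out each library gave -0.22 to 0.30 for Grem1 and -0.14 to 0.16 for Id3. For 5/6 Nx-HPi-Hp against Sham, Grem1 ran from -0.33 to 0.18. For 5/6 Nx-HPi-Hp against 5/6 Nx-LPi-Lp, Smad6 was 0.024 with total counts and -0.49 to 0.19 with each library left out, Bmp4 -0.065 to 0.18, Grem1 -0.37 to 0.070 and Bmp2 -0.31 to 0.31. The cause of these changes was not tested.

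In no comparison did all 4 same-numbered pairs of libraries deviate together. Correlations ran from -0.30 to 0.57, and 4 of 24 pairs were over 0.1, 3 of them in 5/6 Nx-HPi-Hp against 5/6 Nx-LPi-Lp (0.20, 0.17 and 0.57, with -0.071 for the remaining pair). The numbers were therefore not taken as pairs. With the replicate block, 1 member (Bmp2, -1.10) was called lower for 5/6 Nx-LPi-Lp against Sham in place of 0, and no other call of a member changed. Low counts limit Nog and Grem1, which had at most 47 and 75 counts in a library.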

Other observations

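Of the 54532 genes in the count table, Nog was the only one at 0 counts in both of the deepest libraries and at 9 counts or more in each of the other 14. At the median share of those 14 libraries, the deepest libraries would hold 66.0 and 53.6 Nog counts. This feature was singled out after its values were seen.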
